A study of Mus musculus with 10 samples.

Results

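The genes described here are 43 genes of mitosis and the spindle, found on the array by a fixed list of gene symbols and measured in mouse osteoblasts, the cells that form bone. On the array, 42 of the 43 had at least 1 probe set with a single gene symbol, and no such probe set is listed for Ccnb1 in the annotation used here. They had 97 probe sets, of 45101 in the whole table, and 79 of the 97 passed the filter on low values. All 42 genes with a value passed it, among 11357 genes tested. A further probe set, of Foxm1 and other genes together, was left out.

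RNA of osteoblasts was measured on 10 Affymetrix arrays. The mice were 2 to 3 days old, on a background written C5BL6 in the labels, and their sex was not determined. Of the arrays, 4 were wild type, 3 came from mice with constitutive β-catenin in osteoblasts only (β-catenin active below), and 3 from mice whose FoxO1 gene was deleted in osteoblasts only (FoxO1 deleted below). The labels name neither the promoter that made the change osteoblast-specific nor the allele, and do not say whether a sample was 1 animal, a pool or a culture. So a p-value here speaks of differences among samples that may be technical repeats. Arrays are named by genotype label and number, and the values of a gene are listed in the order of those numbers.

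A cell enters mitosis when the kinase Cdk1, bound to a B-type cyclin, becomes active, and it leaves mitosis when the anaphase-promoting complex (APC/C) marks the cyclins and securin for destruction. In between, chromosomes condense, their kinetochores attach to the microtubules of the spindle, a checkpoint delays separation until all are attached, and the cell is divided by cytokinesis. Most of these genes are transcribed late in the cell cycle, so in a tissue sample their RNA is widely used as a readout of how many cells are dividing. In such bulk RNA, fewer dividing cells and less RNA per dividing cell cannot be told apart.

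Some facts of the arrays bear on all that follows. Each value is a log2 MAS5 signal, and a difference of 1 is 2-fold. Wild type 1 and 2 (Pearson r over all probe sets 0.948) and wild type 3 and 4 (0.946) were each closer to one another than the other wild-type pairs (0.938 to 0.941), so the wild-type spread may rest on 2 units. Ctnnb1, which encodes β-catenin, differed by -0.03 ± 0.09 (SE) between β-catenin active and wild type (adjusted p = 0.941). Foxo1 read 10.09, 10.08, 9.93 and 10.05 in wild type and 9.80, 10.13 and 9.67 with FoxO1 deleted, a difference of -0.17 ± 0.11 (adjusted p = 0.706). FoxO1 deleted 2 lay above every wild-type array, and the position of these probes against the deleted part is not given, so Foxo1 does not check the labels, and each genotype name below stands for the label. Of 12 osteoblast markers 8 were measured, among them Col1a2 at 15.20 to 15.82. Runx2, Spp1 and Bglap are among those with no probe set of a single gene symbol in the annotation used here.

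No member passed the test in any comparison, yet most lay lower in both altered genotypes than in wild type. With active β-catenin the members' median difference from wild type was -0.32, or 1.25-fold lower, and 38 of 42 differences were negative, against a median of 0.00 and 48.8% negative over all genes tested. With FoxO1 deleted the median was -0.30, or 1.24-fold lower, and 41 of 42 were negative, against 50.1% of all genes. Both comparisons use the same 4 wild-type arrays. These counts and medians describe the list and are not a test of it.

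By limma with Benjamini-Hochberg adjustment over 11357 genes, 0 of 42 members had an adjusted p under 0.05 in β-catenin active against wild type, where 0.784% of all genes did. The smallest was 0.153, for Hmmr. At an unadjusted p under 0.05 there were 13 members, or 31.0%, against 12.1% of all genes, and all 13 were lower, against 5.79% of all genes. In FoxO1 deleted against wild type, 0 of 42 passed, where 0.0264% of all genes did, and the smallest adjusted p was 0.488, for Ccna2. Here 7 members, or 16.7%, had an unadjusted p under 0.05, against 7.83% of all genes, and all 7 were lower, against 3.94%. Every array of the altered genotype lay under every wild-type array for 11 members with active β-catenin, against 6.76% of all genes, and for 12 with FoxO1 deleted, against 4.44%. No member lay above wild type without overlap, where 7.27% and 4.59% of all genes did.

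The low values came mostly from a single array in each altered genotype. The median of the 42 members, each gene counted from its wild-type mean, was 0.01, 0.02, -0.02 and -0.02 in wild type 1 to 4. It was -0.69 in β-catenin active 1 but -0.11 and -0.08 in β-catenin active 2 and 3, and -0.60 in FoxO1 deleted 3 but -0.19 and -0.08 in FoxO1 deleted 1 and 2. The same median over all genes stayed between -0.02 and 0.02 in every array. In β-catenin active 1, 38 members lay under every wild-type array (90.5%, against 27.8% of all genes), and in FoxO1 deleted 3, 39 did (92.9%, against 31.4%). In the other 4 altered arrays this count ran from 17 to 27 (40.5% to 64.3%, against 22.4% to 28.7% of all genes). The lowest of the 10 arrays was β-catenin active 1 for 25 members, FoxO1 deleted 3 for 16 and FoxO1 deleted 2 for 1, Pttg1. So 97.6% of members had their minimum in 1 of those first 2 arrays, against 30.7% of all genes.

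**Figure D1:**
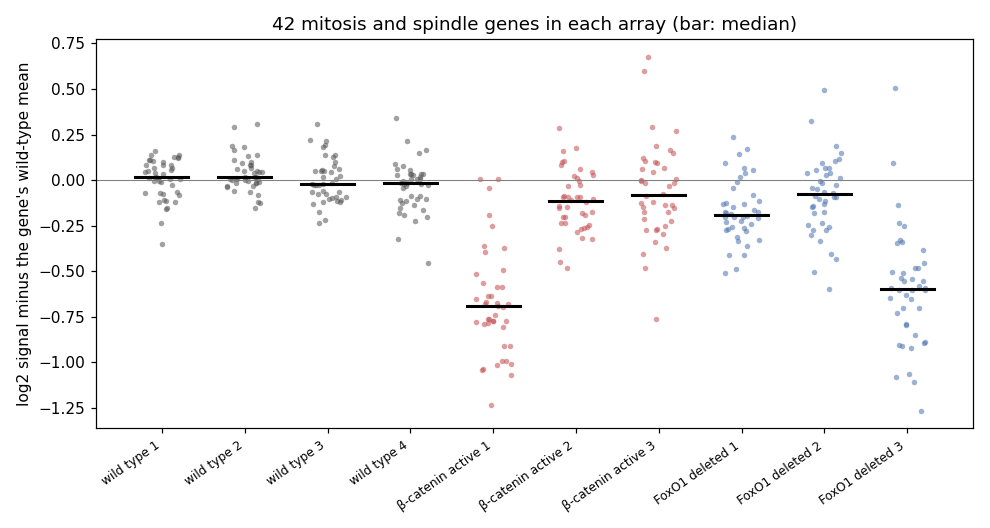
The log2 signal of each of the 42 members minus its own wild-type mean (vertical axis), by array (horizontal axis), 1 point per gene with a bar at the median; grey is wild type, red β-catenin active, blue FoxO1 deleted. The medians of β-catenin active 1 (-0.69) and FoxO1 deleted 3 (-0.60) lie far below those of the other altered arrays (-0.08 to -0.19).

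The spread within a genotype showed the same split. The median SD of a member between arrays was 0.12 in wild type, and larger with active β-catenin (0.36) or FoxO1 deleted (0.30), against 0.13, 0.17 and 0.19 over all genes. Without β-catenin active 1 the members' median difference from wild type became -0.12 and 28 of 42 were negative, and without FoxO1 deleted 3 the median became -0.13 and 35 were negative. Both medians stayed negative and lay closer to 0.

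Signs of RNA quality and marker levels were read in the same arrays. The log2 gap between the 3' and 5' probe sets of Actb, which widens as RNA is degraded, was 0.60 to 0.77 in wild type, 0.85 to 0.88 with active β-catenin (0.88 in array 1) and 0.80, 0.81 and 0.99 with FoxO1 deleted. So β-catenin active 1 was not apart from the other β-catenin active arrays in this gap, and FoxO1 deleted 3 had the widest of all 10. Every altered array had a wider Actb gap than every wild-type array, so this gap cannot be told apart from genotype in the comparisons with wild type. The same gap of Gapdh was 0.22, 0.21, 0.00 and 0.01 in wild type, 0.31, 0.02 and 0.18 in β-catenin active and 0.18, 0.33 and 0.24 in FoxO1 deleted, widest in FoxO1 deleted 2. The summed linear signal of the 8 osteoblast markers was 174262 in FoxO1 deleted 3 and 163100 in β-catenin active 1, against 136369 to 155791 in the other arrays. Their part in the result was not tested.

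Many genes of this kind carry CCAAT boxes, bound by the factor NF-Y, and a TTTGAA element known as the cell cycle homology region, through which the DREAM and MuvB complexes repress transcription early in the cycle and activate it late. Promoters of 35 of the 42 members were found in the RefSeq table (build GRCm38.p6), with 38 start sites, since Bub3, Ect2 and Prc1 have 2 each. In the 250 bases before the start, searched on both strands, CCAAT (or its complement ATTGG) was present in 29 of 38 promoters (76.3%), against 33.8% of 32851 promoters of all genes. It was present at 2 or more places in 50.0% against 10.1%. TTTGAA (or TTCAAA) was present in 16 (42.1%) against 16%, and both motifs in 15 (39.5%) against 5.55%. The motifs were counted independently, also where they overlap, and a match is a description of the letters and not a binding site.

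The following 7 promoters show these letters in members that the results below turn on, each from 150 bases before the start to the base before it, 5' to 3' on the strand of the gene, with the motifs of either strand in capitals. Cdk1 lies at chr10:69352913-69353062 on the minus strand, Cdc20 at chr4:118437344-118437493 on the minus strand, and Ube2c at chr2:164769779-164769928 on the plus strand. Top2a lies at chr11:99024190-99024339, Hmmr at chr11:40733438-40733587 and Mki67 at chr7:135716380-135716529, all on the minus strand. Pttg1, at chr11:43425982-43426131 on the minus strand, has neither motif in its 250 bases and is shown for contrast in its letters. It was chosen after its values were seen.
Cdk1: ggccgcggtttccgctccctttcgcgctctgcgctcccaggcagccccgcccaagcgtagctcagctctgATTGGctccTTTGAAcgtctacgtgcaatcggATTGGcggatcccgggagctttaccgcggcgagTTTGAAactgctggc
Cdc20: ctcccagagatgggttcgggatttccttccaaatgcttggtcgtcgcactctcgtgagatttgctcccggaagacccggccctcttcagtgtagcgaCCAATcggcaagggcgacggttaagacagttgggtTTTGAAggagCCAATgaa
Ube2c: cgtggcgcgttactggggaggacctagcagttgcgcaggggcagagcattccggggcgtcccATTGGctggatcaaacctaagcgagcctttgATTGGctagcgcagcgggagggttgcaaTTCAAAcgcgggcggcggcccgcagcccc
Top2a: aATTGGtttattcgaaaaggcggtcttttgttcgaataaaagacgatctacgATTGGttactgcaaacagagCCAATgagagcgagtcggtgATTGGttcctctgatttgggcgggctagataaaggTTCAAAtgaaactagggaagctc
Hmmr: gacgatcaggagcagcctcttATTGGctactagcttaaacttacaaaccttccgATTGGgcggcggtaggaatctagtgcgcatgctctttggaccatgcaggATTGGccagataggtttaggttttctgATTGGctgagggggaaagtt
Mki67: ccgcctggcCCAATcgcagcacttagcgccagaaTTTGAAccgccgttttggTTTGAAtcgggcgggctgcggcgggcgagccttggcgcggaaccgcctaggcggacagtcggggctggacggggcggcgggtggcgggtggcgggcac
Pttg1: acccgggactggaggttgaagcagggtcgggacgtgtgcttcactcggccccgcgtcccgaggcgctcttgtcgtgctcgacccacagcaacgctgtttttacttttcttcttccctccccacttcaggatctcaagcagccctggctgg
Hmmr and Top2a hold 4 CCAAT boxes each in these 150 bases, and Cdk1 and Mki67 hold 2 TTTGAA elements. The 8 members with no CCAAT or TTTGAA match in the window were Anln, Birc5, Mad2l1, Ncaph, Ndc80, Nuf2, Nusap1 and Pttg1. All of these but Pttg1 had negative differences from wild type in both genotypes, for example -0.08 and -0.18 (Anln) and -0.44 and -0.44 (Birc5). The part of the motifs in the values was not tested.

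The entry group drives the cell into mitosis. All 7 measured genes were lower with FoxO1 deleted (median -0.36) and 6 of 7 with active β-catenin (median -0.26), and none passed the test. Without β-catenin active 1 the latter median was -0.01, and without FoxO1 deleted 3 the former was -0.19. Cdk1, the kinase at the centre of mitotic entry, read 10.94, 10.83, 10.80 and 10.71 in wild type, 9.75, 10.85 and 10.57 in β-catenin active, and 10.61, 10.52 and 10.24 in FoxO1 deleted. All 3 FoxO1 deleted arrays lay under wild type (difference -0.36 ± 0.21, adjusted p = 0.676), while β-catenin active 2 lay within it (difference -0.43 ± 0.21, adjusted p = 0.450). Without β-catenin active 1 the Cdk1 difference was -0.11.

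Ccna2 encodes cyclin A2, the partner of the CDKs in S phase and up to early mitosis. It read 10.74, 10.90, 10.91 and 10.89 in wild type, 10.10, 10.92 and 10.98 in β-catenin active, and 10.45, 10.26 and 9.97 in FoxO1 deleted. All 3 FoxO1 deleted arrays were below wild type, by 0.63 ± 0.19 on average (1.55-fold, unadjusted p = 0.00675, adjusted p = 0.488). Of the β-catenin active arrays, 2 lay above wild type and 1 far below (difference -0.19 ± 0.19, adjusted p = 0.762). The second Ccna2 probe set gave -0.35 with FoxO1 deleted and -0.43 with active β-catenin, so its probe sets rank the genotypes differently.

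Cdc25c, the phosphatase that switches Cdk1 on, had the most negative difference of all members with active β-catenin. It read 7.64, 8.12, 7.87 and 8.33 in wild type, 6.95, 7.54 and 7.23 in β-catenin active, and 7.63, 7.92 and 6.88 in FoxO1 deleted. The β-catenin active arrays lay under all wild-type arrays (-0.75 ± 0.27, 1.68-fold lower, adjusted p = 0.263), and FoxO1 deleted 2 lay inside the wild-type range (-0.51 ± 0.27, adjusted p = 0.653). Its signal is near the filter's limit of 7.15, and another kept probe set of the gene gave 0.27 with active β-catenin.

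Aurka, the kinase that matures the spindle poles, read 8.76, 8.80, 8.81 and 8.62 in wild type, 7.94, 8.46 and 8.66 in β-catenin active, and 8.26, 8.85 and 8.41 in FoxO1 deleted. Both altered genotypes overlapped wild type, with differences of -0.39 ± 0.19 (adjusted p = 0.432) and -0.24 ± 0.19 (adjusted p = 0.765). Plk1, a kinase that acts from entry to cytokinesis, read 8.88, 8.77, 8.80 and 8.56 in wild type, 7.99, 8.63 and 8.85 in β-catenin active, and 8.51, 8.94 and 8.37 in FoxO1 deleted. Its differences were -0.26 ± 0.20 (adjusted p = 0.678) and -0.15 ± 0.20 (adjusted p = 0.882), and without β-catenin active 1 the first was -0.01. Ccnb2, the B-type cyclin that was measured, differed by -0.23 ± 0.16 with active β-catenin and by -0.27 ± 0.16 with FoxO1 deleted, where its 3 arrays did not overlap wild type.

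Foxm1, a transcription factor that activates many late cell cycle genes, had the most positive difference of the 42 with active β-catenin. It read 7.49, 7.55, 7.5 and 6.91 in wild type, 7.17, 7.65 and 8.04 in β-catenin active, and 7.60, 7.09 and 6.28 in FoxO1 deleted. Its difference was 0.26 ± 0.32 with active β-catenin (adjusted p = 0.827) and -0.37 ± 0.32 with FoxO1 deleted (adjusted p = 0.799). In β-catenin active 1, where most members were lowest, Foxm1 lay inside the wild-type range. The values lie close to the filter's limit, 2 of its 4 probe sets did not pass the filter, and wild-type arrays alone spanned 6.91 to 7.55.

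**Figure D2:**
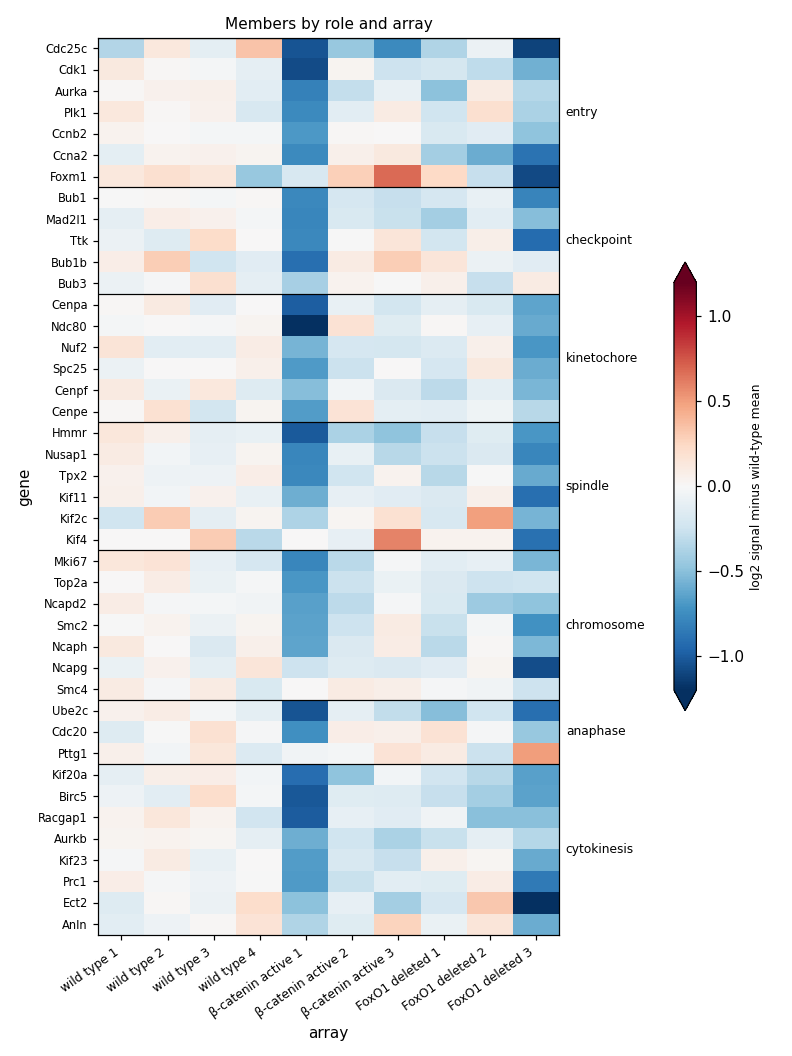
Each of the 42 members (rows, by role) in each array (columns), coloured by log2 signal minus the gene's wild-type mean, red higher and blue lower. The columns of β-catenin active 1 and FoxO1 deleted 3 are blue for nearly all genes, while Pttg1 is red in FoxO1 deleted 3 (12.07 against a wild-type mean of 11.56).

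The checkpoint group holds the proteins that delay anaphase until every kinetochore is attached. All 5 were lower in both genotypes, with medians of -0.21 in β-catenin active and -0.35 in FoxO1 deleted, and 0.02 and -0.10 without β-catenin active 1 and FoxO1 deleted 3. Mad2l1, which holds the APC/C activator Cdc20 in check, read 10.82, 11.01, 10.98 and 10.91 in wild type, 10.15, 10.75 and 10.66 in β-catenin active, and 10.52, 10.80 and 10.42 in FoxO1 deleted. Every altered array lay under every wild-type array, with differences of -0.41 ± 0.14 (unadjusted p = 0.0144, adjusted p = 0.247) and -0.35 ± 0.14 (unadjusted p = 0.0309, adjusted p = 0.627).

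Bub1, the kinase that recruits checkpoint proteins to the kinetochore, showed the same separation. It read 9.53, 9.55, 9.51 and 9.55 in wild type, 8.76, 9.33 and 9.26 in β-catenin active, and 9.33, 9.45 and 8.74 in FoxO1 deleted. Its differences were -0.42 ± 0.18 (adjusted p = 0.371) and -0.36 ± 0.18 (adjusted p = 0.651), and they were -0.24 without β-catenin active 1 and -0.14 without FoxO1 deleted 3. The other 3 overlapped wild type in both genotypes. Ttk, the kinase that starts checkpoint signalling, differed by -0.21 and -0.36, Bub1b, a part of the complex that blocks the APC/C, by -0.17 and -0.02, and Bub3, the partner of both Bub1 and Bub1b, by -0.12 and -0.04, in β-catenin active and in FoxO1 deleted in that order.

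The kinetochore group builds the attachment point on the centromere. All 6 were lower in both genotypes, with medians of -0.32 in β-catenin active and -0.25 in FoxO1 deleted, which became -0.12 and -0.07 without the lowest array of each. Cenpa, the histone variant that marks the centromere, read 10.69, 10.78, 10.54 and 10.68 in wild type, 9.68, 10.58 and 10.45 in β-catenin active, and 10.56, 10.49 and 10.04 in FoxO1 deleted. In each altered genotype 1 array reached the wild-type range (differences -0.44 ± 0.20, adjusted p = 0.409, and -0.31 ± 0.20, adjusted p = 0.714).

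Nuf2 and Ndc80 are subunits of the complex that binds microtubules. Nuf2 read 9.80, 9.52, 9.52 and 9.73 in wild type, 9.08, 9.44 and 9.43 in β-catenin active, and 9.48, 9.70 and 8.94 in FoxO1 deleted. Its β-catenin active arrays did not overlap wild type (-0.33 ± 0.17, adjusted p = 0.497). Ndc80 had a single very low array, 7.16 in β-catenin active 1 against 8.57 and 8.25 in the other 2, and its difference of -0.40 ± 0.28 became 0.02 without it. Spc25, of the same complex, differed by -0.31 and -0.23, and Cenpe, a kinetochore motor, by -0.21 and -0.17.

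Cenpf, a large coiled-coil kinetochore protein, had the smallest p of this group with FoxO1 deleted. It read 9.98, 9.79, 10 and 9.72 in wild type, 9.36, 9.84 and 9.70 in β-catenin active, and 9.56, 9.76 and 9.32 in FoxO1 deleted. FoxO1 deleted 2 lay within wild type, and the difference was -0.33 ± 0.14 (unadjusted p = 0.0401, adjusted p = 0.635).

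The spindle group holds motors and microtubule-binding proteins. With active β-catenin 5 of 6 were lower (median -0.30) and with FoxO1 deleted all 6 (median -0.33), and both medians were -0.11 without β-catenin active 1 or FoxO1 deleted 3. Hmmr, a microtubule-binding protein of the spindle poles, had the smallest p of all 42 members with active β-catenin. It read 9.42, 9.34, 9.17 and 9.19 in wild type, 8.27, 8.90 and 8.80 in β-catenin active, and 9.0, 9.13 and 8.58 in FoxO1 deleted. Every altered array lay under every wild-type array, by 0.62 ± 0.17 on average with active β-catenin (1.54-fold, unadjusted p = 0.00409, adjusted p = 0.153) and by 0.38 ± 0.17 with FoxO1 deleted (1.3-fold, adjusted p = 0.638). Without β-catenin active 1 the first was -0.43. The other 4 kept probe sets of Hmmr gave -0.08 to -0.47 with active β-catenin.

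Nusap1, which bundles microtubules around chromosomes, read 10.33, 10.19, 10.13 and 10.26 in wild type, 9.44, 10.14 and 9.89 in β-catenin active, and 9.97, 10.05 and 9.44 in FoxO1 deleted. The FoxO1 deleted arrays lay under wild type (-0.41 ± 0.17, adjusted p = 0.635), and β-catenin active 2 reached it (-0.40 ± 0.17, adjusted p = 0.384). Tpx2, which activates Aurka on the spindle, differed by -0.32 in both genotypes. Kif11, the motor that pushes the poles apart, differed by -0.27 and -0.34, Kif2c, which shortens microtubules, by -0.06 and -0.08, and the chromosome-bound motor Kif4 by 0.17 and -0.27, in the order of β-catenin active and FoxO1 deleted.

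The chromosome group holds condensin subunits and proteins of mitotic chromosomes. With active β-catenin 6 of 7 were lower (median -0.26, and -0.16 without array 1), and with FoxO1 deleted all 7 (median -0.28, and -0.15 without array 3). Top2a, the topoisomerase that untangles sister DNA, read 11.51, 11.59, 11.43 and 11.49 in wild type, 10.81, 11.25 and 11.43 in β-catenin active, and 11.33, 11.26 and 11.27 in FoxO1 deleted. Here the 3 FoxO1 deleted arrays agreed closely and all lay under wild type (-0.22 ± 0.12, adjusted p = 0.671), while FoxO1 deleted 3 was not low against the other 2. With active β-catenin the difference was -0.34 ± 0.12 (unadjusted p = 0.0174, adjusted p = 0.265), and -0.16 without array 1.

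Ncapd2, a condensin subunit, read 9.81, 9.71, 9.70 and 9.68 in wild type, 9.07, 9.41 and 9.71 in β-catenin active, and 9.54, 9.29 and 9.24 in FoxO1 deleted. The FoxO1 deleted arrays did not overlap wild type (-0.37 ± 0.14, unadjusted p = 0.0230, adjusted p = 0.590), and β-catenin active 3 did (-0.33 ± 0.14, adjusted p = 0.374). Mki67, which encodes the proliferation marker Ki-67 that coats mitotic chromosomes, read 11.93, 11.96, 11.70 and 11.59 in wild type, 11.01, 11.47 and 11.78 in β-catenin active, and 11.67, 11.70 and 11.25 in FoxO1 deleted. Both genotypes overlapped wild type, with differences of -0.38 ± 0.18 (adjusted p = 0.428) and -0.26 ± 0.18 (adjusted p = 0.737).

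The other condensin subunits divided. Smc2, Ncaph and Ncapg differed by -0.26, -0.24 and -0.19 with active β-catenin and by -0.34, -0.28 and -0.39 with FoxO1 deleted. Smc4, singled out after its values were seen, read 11.85, 11.74, 11.85 and 11.57 in wild type, 11.76, 11.85 and 11.82 in β-catenin active, and 11.74, 11.71 and 11.50 in FoxO1 deleted. It was the 1 member of 42 whose β-catenin active arrays all lay above the FoxO1 deleted arrays, against 5.39% of all genes (0.16 ± 0.10, adjusted p = 0.751). Its 2 other kept probe sets gave -0.10 and -0.14 for active β-catenin against wild type, where the one used gave 0.06.

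The anaphase group is small. With active β-catenin 2 of 3 were lower (median -0.20, and 0.07 without array 1) and with FoxO1 deleted 2 of 3 (median -0.10, and -0.08 without array 3). Ube2c, the ubiquitin-conjugating enzyme of the APC/C, read 10.54, 10.58, 10.46 and 10.37 in wild type, 9.45, 10.38 and 10.19 in β-catenin active, and 9.98, 10.25 and 9.58 in FoxO1 deleted. The FoxO1 deleted arrays all lay under wild type (-0.55 ± 0.21, 1.46-fold lower, adjusted p = 0.590), and β-catenin active 2 just reached it (-0.48 ± 0.21, adjusted p = 0.383).

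Cdc20, which activates the APC/C at anaphase, read 10.94, 11.09, 11.28 and 11.08 in wild type, 10.36, 11.18 and 11.16 in β-catenin active, and 11.27, 11.08 and 10.64 in FoxO1 deleted. Only β-catenin active 1 and FoxO1 deleted 3 lay outside the wild-type range, and the differences were -0.20 ± 0.20 (adjusted p = 0.773) and -0.10 ± 0.20 (adjusted p = 0.921). Pttg1, the securin that guards the cohesin-cutting protease, was singled out after its values were seen. It read 11.63, 11.53, 11.70 and 11.40 in wild type, 11.52, 11.54 and 11.73 in β-catenin active, and 11.66, 11.31 and 12.07 in FoxO1 deleted. FoxO1 deleted 3, the lowest array for 16 members, was the highest for Pttg1, and β-catenin active 1 lay inside wild type. Its differences were 0.03 ± 0.15 and 0.12 ± 0.15 (adjusted p = 0.963 and 0.874), and the other 2 kept probe sets gave 0.23 and -0.14 with FoxO1 deleted.

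The cytokinesis group works at the spindle midzone and the cleavage furrow. All 8 were lower in both genotypes, with medians of -0.39 with active β-catenin (-0.22 without array 1) and -0.33 with FoxO1 deleted (-0.11 without array 3). Aurkb, the kinase of the chromosomal passenger complex, read 8.95, 8.96, 8.94 and 8.81 in wild type, 8.33, 8.68 and 8.54 in β-catenin active, and 8.65, 8.81 and 8.57 in FoxO1 deleted. The β-catenin active arrays lay under wild type by 0.40 ± 0.12 on average (1.32-fold, unadjusted p = 0.00581, adjusted p = 0.166), and by 0.30 without array 1. With FoxO1 deleted the difference was -0.24 ± 0.12 (adjusted p = 0.651).

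Birc5, survivin of the same complex, read 10.56, 10.50, 10.84 and 10.60 in wild type, 9.61, 10.48 and 10.47 in β-catenin active, and 10.35, 10.22 and 9.98 in FoxO1 deleted. All 6 altered arrays lay under wild type, 2 of them by little, and the difference was -0.44 ± 0.19 in both genotypes (adjusted p = 0.395 and 0.636). Without β-catenin active 1 it was -0.15, and without FoxO1 deleted 3 it was -0.34. Kif20a, a midzone motor, read 8.94, 9.12, 9.13 and 9.02 in wild type, 8.14, 8.57 and 9.02 in β-catenin active, and 8.82, 8.72 and 8.40 in FoxO1 deleted. Its FoxO1 deleted arrays did not overlap wild type (-0.41 ± 0.19, adjusted p = 0.638), while β-catenin active 3 did (-0.48 ± 0.19, adjusted p = 0.318).

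Kif23 and Racgap1 form the centralspindlin complex of the midzone, and Prc1 bundles its microtubules. With active β-catenin they differed by -0.38, -0.41 and -0.36, and with FoxO1 deleted by -0.17, -0.35 and -0.30. Ect2, which activates RhoA at the furrow, differed by -0.33 and -0.38, and Anln, which anchors the contractile ring, by -0.08 and -0.18, in β-catenin active and in FoxO1 deleted. Ect2 had the widest spread of the members with FoxO1 deleted, from 8.27 in array 3 to 9.86 in array 2 (SD 0.81, n = 3).

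**Figure D3:**
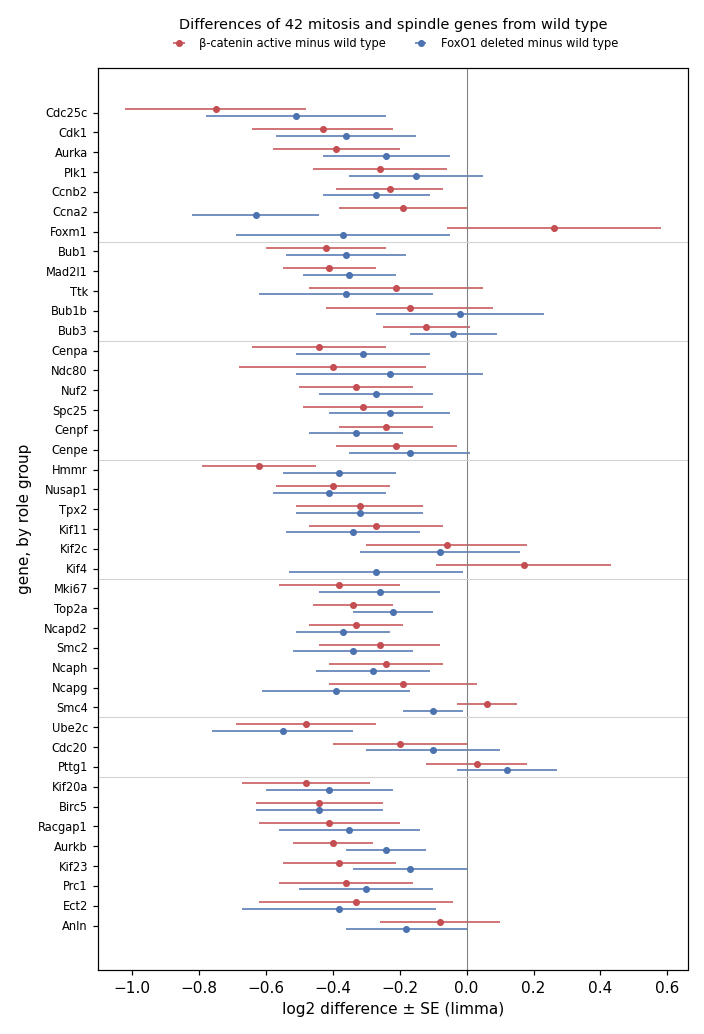
The log2 difference of each member from wild type (horizontal axis) with its limma SE as a bar, red for β-catenin active and blue for FoxO1 deleted, genes in role groups separated by lines. Most points lie left of 0, and none of these differences passed the test.

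Between the 2 altered genotypes the members' median lay close to 0. The median difference of β-catenin active minus FoxO1 deleted was -0.06, with 24 of 42 negative (49.2% of all genes) and values from -0.25 (Hmmr) to 0.63 (Foxm1). Of the 42, 0 passed, where 0.669% of all genes did, 0 had an unadjusted p under 0.05, against 8.03% of all genes, and the smallest adjusted p was 0.635, for Ccna2. None lay lower without overlap, against 4.16% of all genes. The count depended on the 2 low arrays, since 5 were negative without β-catenin active 1, 37 without FoxO1 deleted 3 and 15 without both (median 0.04), and also on FoxO1 deleted 2, without which 15 were negative. Leaving out both low arrays at once was chosen after seeing the data. Ccna2 then passed, higher with active β-catenin than with FoxO1 deleted, by 0.72 without β-catenin active 1 (adjusted p = 0.0483) and by 0.60 without both (adjusted p = 0.0443). In these 2 settings 53 and 56 of 11357 genes passed. With all arrays the Ccna2 difference was 0.44 ± 0.20 (adjusted p = 0.635), and the second Ccna2 probe set gave -0.08.

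Several members had more than 1 probe set. Over the 79 kept probe sets, 69 differences were negative with active β-catenin (median -0.27) and 74 with FoxO1 deleted (median -0.27), and 0 passed in a fit of all kept probe sets. Of the 37 that did not represent their gene, 28 had the sign of the one that did in β-catenin active and 33 in FoxO1 deleted. The largest disagreement with active β-catenin was in Cdc25c, given above. Cdc20 also varied, at -0.20, -0.06 and -0.96 over its 3 kept probe sets, and so did Ncapg, at -0.19 and -0.76.

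Other genes of the cell cycle, on lists that hold no member, gave similar medians. Of 50 measured further mitosis genes, 48 were lower with active β-catenin (median -0.30) and 46 with FoxO1 deleted (median -0.24). The first were 41 (median -0.16) without β-catenin active 1, and the second 33 (median -0.07) without FoxO1 deleted 3. None of the 50 passed in either, where 0.784% and 0.0264% of all genes did, and 17 (34.0%) and 13 (26%) lay under wild type without overlap, against 6.76% and 4.44% of all genes. The smallest p-values with active β-catenin were those of the spindle protein Tacc3 (-0.63 ± 0.18, adjusted p = 0.164) and the centromere protein Cenpn (-0.44 ± 0.13, adjusted p = 0.177). Separase, Espl1, came next (-0.50 ± 0.17, adjusted p = 0.225). With 1 array left out, Cenpn passed only without β-catenin active 2, where 63 of 11357 genes passed.

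Genes of DNA replication, which act in S phase before mitosis, were lower in 24 of 25 in each genotype, with medians of -0.28 and -0.26, and none passed. Each median was -0.18 without the low array of its genotype. With active β-catenin, 2 replication genes, Mcm3 and Rrm2, passed when FoxO1 deleted 3 was left out, and none when any other single array was. Without FoxO1 deleted 3, 130 of 11357 genes passed, against 89 with all arrays. The helicase subunit Mcm3 read 10.60, 10.56, 10.53 and 10.52 in wild type, 9.88, 10.15 and 10.23 in β-catenin active, and 10.42, 10.44 and 10.05 in FoxO1 deleted. All 6 altered arrays lay under wild type (-0.47 ± 0.11, adjusted p = 0.0968, with active β-catenin, and 0.0445 to 0.280 when 1 array was left out). The clamp loader subunit Rfc4 differed by -0.55 ± 0.16 and the sliding clamp Pcna by -0.37 ± 0.11 with active β-catenin (adjusted p = 0.159 and 0.180).

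The 13 APC/C subunits and activators, of the complex that ends mitosis, centred near 0. With active β-catenin 7 were lower (median -0.02) and with FoxO1 deleted 6 (median 0.03), and none passed. Cdc26 had the smallest p, at -0.24 ± 0.06 with active β-catenin (adjusted p = 0.113), followed by Fzr1 at -0.23 ± 0.11 and Anapc11 at -0.12 ± 0.09. Promoters of this list held CCAAT in 35.7% and TTTGAA in 7.14%. The further mitosis genes held them in 54.7% and 34.0%, and the replication genes in 61.5% and 11.5%.

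Of 9 measured CDK inhibitors and p53 targets, 1 passed, Cdkn1a, which encodes the inhibitor p21. It read 11.64, 11.71, 11.81 and 11.74 in wild type, 12.69, 12.54 and 12.72 in β-catenin active, and 11.84, 11.78 and 11.75 in FoxO1 deleted. All 3 β-catenin active arrays lay well above all the others, and Cdkn1a rose 1.90-fold there (0.92 ± 0.07, adjusted p = 4.41e-04), while with FoxO1 deleted it differed from wild type by 0.06 ± 0.07 (adjusted p = 0.846). Its 3 β-catenin active arrays spanned 12.54 to 12.72, and β-catenin active 1 lay between the other 2. The inhibitor Cdkn2b read 9.74 in β-catenin active 1, against 8.47 and 8.85 in arrays 2 and 3 and 8.11 to 8.43 in wild type (0.76 ± 0.28, adjusted p = 0.278). Cdkn1c read 13.08 in β-catenin active 1, its lowest array (-0.40 ± 0.19, adjusted p = 0.438).

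**Figure D4:**
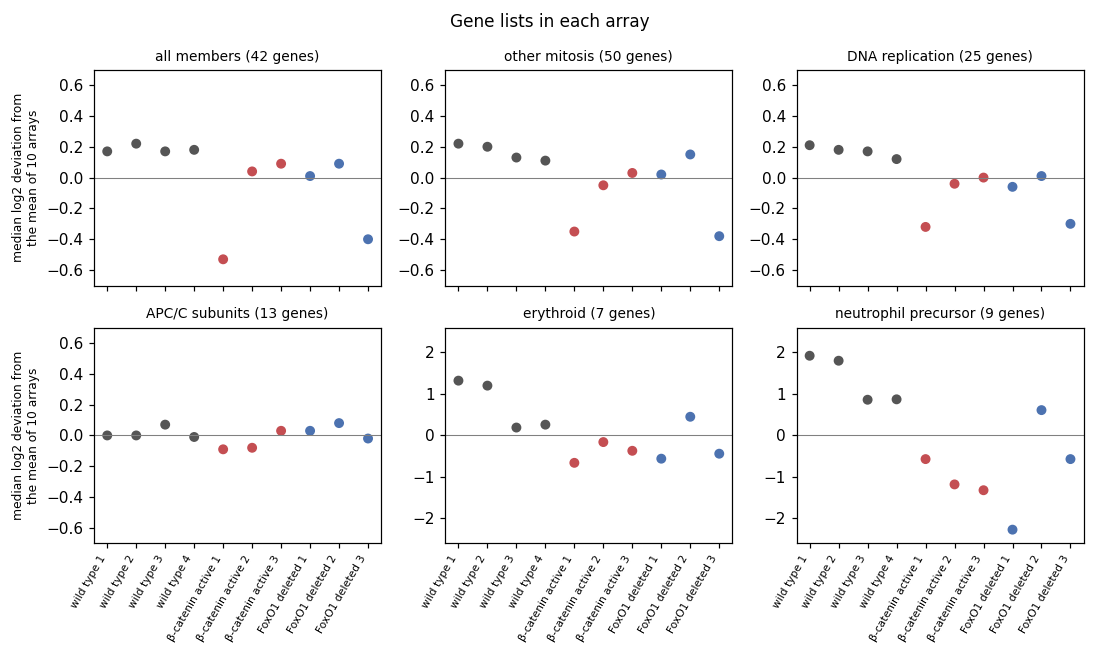
Median log2 deviation of the genes of 6 lists from their means over 10 arrays (vertical axis), by array, with grey for wild type, red for β-catenin active and blue for FoxO1 deleted; the last 2 panels have a wider scale. β-catenin active 1 and FoxO1 deleted 3 are the 2 lowest arrays for the members (-0.53 and -0.40), the further mitosis genes (-0.35 and -0.38) and DNA replication (-0.32 and -0.30). This does not hold for APC/C subunits, erythroid markers or neutrophil precursor markers.

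Blood cell precursors of young bone also divide, and few of their markers passed the test. The summed linear signal of 9 neutrophil precursor markers was 13999 to 29949 in wild type, and lay between 2837 and 3878 with active β-catenin and between 1309 and 10422 with FoxO1 deleted. All 9 differences were negative in both genotypes (medians -2.55 and -2.15), and 2 of the 9, Lcn2 and Olfm4, fell with active β-catenin (-2.71 ± 0.45 and -2.77 ± 0.53, adjusted p = 0.0207 and 0.0397), where 0.185% of all genes fell. None passed with FoxO1 deleted. Both calls were lost without β-catenin active 1, 2 or 3 or wild type 1, 2 or 4, and Lcn2 alone passed without wild type 3. Without FoxO1 deleted 1, 6 of the 9 passed, and without FoxO1 deleted 2, 5 did, where 94 and 120 of 11357 genes passed. Over these settings the list's median stayed between -2.36 and -2.75. With FoxO1 deleted, Lcn2 and Olfm4 passed when FoxO1 deleted 2 was left out, where 7 of 11357 genes passed. The most abundant of them, S100a8, read 13.70, 13.78, 12.63 and 12.67 in wild type, 10.68, 10.80 and 10.45 in β-catenin active, and 9.28, 12.14 and 11.59 in FoxO1 deleted. The summed signal of 7 erythroid markers was 2508 to 4974, 1483 to 2213 and 1528 to 2783 in the same order, and none of the 7 passed in either genotype. The erythroid sum was lowest in β-catenin active 1 (1483) and next in FoxO1 deleted 3 (1528), which are also the 2 lowest arrays for the members. FoxO1 deleted 1 (1582) was close to them. By median log2 deviation the erythroid list was lowest in β-catenin active 1 (-0.66), then in FoxO1 deleted 1 (-0.56) and FoxO1 deleted 3 (-0.44).

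The neutrophil markers ordered the arrays differently from the members. Their sum in wild type 1 and 2 (29090 and 29949) was higher than in wild type 3 and 4 (13999 and 14185), while the members' medians of these 4 arrays, as deviations from the mean over 10 arrays, were 0.17, 0.22, 0.17 and 0.18. FoxO1 deleted 1 had the lowest neutrophil sum of all, 1309, and a members' median of 0.01, against -0.40 in FoxO1 deleted 3 with a sum of 6131. The neutrophil sum follows its most abundant markers, such as S100a8, while Elane, Prtn3 and Ctsg lay under the filter. So the sum is not a measure of dividing precursors. The part of blood cell precursors in the members' differences was not tested.

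Markers of other cell types that a bone sample could hold were measured alongside. The summed signals in wild type, β-catenin active and FoxO1 deleted ran from 51556 to 75264, 51549 to 61643 and 38546 to 61049 for 9 osteoclast markers, and from 17734 to 21017, 19939 to 21393 and 17124 to 24173 for 10 macrophage markers. For 12 chondrocyte markers they ran from 30091 to 39193, 38988 to 47930 and 39623 to 80801, the last in FoxO1 deleted 1. For 11 skeletal muscle markers they ran from 57097 to 118790, 63039 to 130644 and 68295 to 126328. The 10 endothelial markers gave 8147 to 8468, 9814 to 11410 and 8811 to 9176. The 4 B-cell precursor markers gave 1657 to 1749, 1860 to 1967 and 1632 to 1832. This last sum follows its most abundant marker, Ebf1. Ebf1 differed from wild type by 0.40 in β-catenin active and by 0.22 in FoxO1 deleted. In the same order, the other 3 differed by -1.0 and -0.24 (Cd79b), -0.71 and -0.66 (Igll1), and -0.10 and -0.83 (Blnk). None of the 4 passed. Of the 12 chondrocyte markers, 11 were higher than wild type in β-catenin active and 12 in FoxO1 deleted, and with all arrays none passed. Their differences ran from -0.00 to 0.87 and from 0.11 to 1.69 in the same order, with Col11a1 lowest in both. Samples labelled osteoblasts carried signal of muscle, cartilage and osteoclast genes. The markers of highest mean read 14.26 to 15.16 (Acta1), 14.02 to 14.41 (Col11a1) and 14.17 to 14.70 (Ctsk). Their part in the members' values was not tested.

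**Figure D5:**
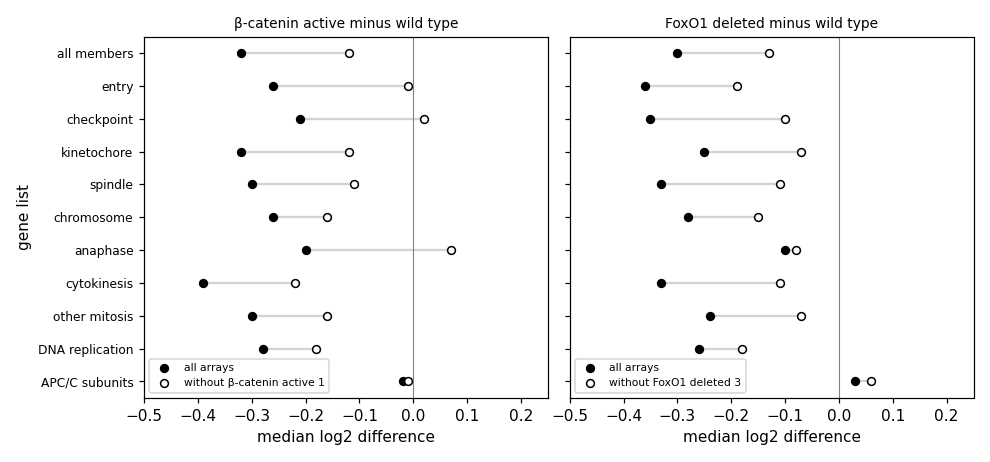
Median log2 difference from wild type of each gene list (rows) with all arrays (filled) and without β-catenin active 1 or FoxO1 deleted 3 (open), for β-catenin active on the left and FoxO1 deleted on the right. For all members the median moves from -0.32 to -0.12 and from -0.30 to -0.13, and the APC/C subunits stay near 0.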

How the data were processed

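The values are log2 signals made by the authors with MAS5, per the submitters' processing notes. The deposited log2 table carries no counts, and its scaling shows in the values, since the linear mean of each array after trimming 2% at each end was near 500. Per the labels' protocols, 500 ng of total RNA was labelled with biotin. Of 45101 probe sets, 34958 had 1 gene symbol in the platform annotation, and 20127 of these were kept because at least 3 of 10 values exceeded the median of the table, 7.15. The kept probe set of highest mean stands for its gene, which gave 11357 genes.

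Genes were fitted with limma 3.58.1 in R 4.3.3 (1 mean per genotype, all 10 arrays, eBayes with a mean-variance trend, 7 residual degrees of freedom, two-sided). Calls are at a Benjamini-Hochberg adjusted p under 0.05, and differences are ± SE. The fit was tested on simulated data. Members and lists were chosen with earlier results of these data known. Values per array are given for the 2 members of each role group with the smallest p with active β-catenin and the 1 with the smallest with FoxO1 deleted, for Cdk1, Plk1, Aurkb, Top2a, Mki67, Foxm1 and Cdc20 and, chosen after their values were seen, for Smc4 and Pttg1. Named from other lists are the 3 genes with the smallest p, Cdkn1a, and the marker with the highest mean. Those markers not described above were Ank1 (erythroid), Csf1r (macrophage) and Cdh5 (endothelial). They differed from wild type by -0.04, 0.13 and 0.34 with active β-catenin and by -0.33, -0.11 and -0.02 with FoxO1 deleted. Lcn2, Olfm4, Cd79b, Igll1, Blnk and the other probe sets of Ncapg and Aurkb were named after their values were seen. Alternatives were other filters, scalings, probe set choices, variance models, sample sets and left-out arrays. The number of arrays limits the precision.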

Additional observations from a re-analysis of the deposited data

Results flagged for a closer look

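In 3 of 42 members, 1 wild-type array stood apart from the other 3 by more of the group's range than Dixon's limit for 4 arrays, 0.829. They were Ccna2 in wild type 1 (10.74, ratio of gap to range 0.882), Aurkb in wild type 4 (8.81, ratio 0.867) and Foxm1 in wild type 4 (6.91, ratio 0.906). Chance marks about 1 in 20 such groups, so 3 of 42 is close to that share. Ccna2 and Aurkb are among the members with the smallest p-values above, and in both the array that stood apart was the lowest of the wild-type arrays.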

How the results depend on the processing

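The members were refitted under 24 other settings per comparison. The stricter filter left out Foxm1, and with every probe set as a feature 79 probe sets stood for the 42 genes. In each setting 0 members passed in β-catenin active against wild type and in FoxO1 deleted against wild type. With 1 value per gene, the smallest adjusted p was 0.0832 (Hmmr, with array weights) and 0.161 (Ccna2, without β-catenin active 1). With every probe set as a feature, 1 Ncapg probe set had an adjusted p of 0.0667 with active β-catenin. Of 2895 single differences, 2893 stayed on their side of the threshold, and the other 2 are those of Ccna2 given above. The median stayed negative in all 24 settings for both comparisons with wild type. Without β-catenin active 1, 10 of 42 members changed sign against wild type, to at most 0.20 in size, and without FoxO1 deleted 3, 8 did, to at most 0.15. In β-catenin active minus FoxO1 deleted, members passing ran from 0 to 1 and negative members from 5 to 37 when 1 array was left out, and they were 1 and 15 without both low arrays.

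Counts over all genes moved more. For β-catenin active against wild type 89 genes passed, but 141 with only the groups compared, 149 with array weights, 9 with similar wild-type arrays averaged, 10 with Xist signal as a covariate, and 31 to 130 when 1 array was left out, the lowest without wild type 1. For FoxO1 deleted against wild type 3 passed, but 5 with quantile scaling, 5 with no mean-variance trend, 1 with only the groups compared, 29 with array weights and 0 to 7 when 1 array was left out. Counts of 0 by limma came without FoxO1 deleted 1 or 3, without both low arrays, and with similar wild-type arrays averaged, where 1043, 799, 992 and 345 genes had an unadjusted p under 0.05. Between the altered genotypes 76 passed, but 25 with only the groups compared, 49 with similar wild-type arrays averaged, 6 with the Xist covariate and 29 to 62 when 1 array was left out. With the replicate number as a block the 3 counts were 15, 0 (635 at an unadjusted p under 0.05) and 22, and 0 members passed. Arrays of the same number did not consistently deviate together (correlations -0.29 to 0.29), and those of different numbers ranged similarly (-0.31 to 0.32). So no pairing by number was seen. Deviations from the means of such small groups cannot exclude it. The cause of these moves was not tested.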
